A study of Homo sapiens with 17 samples.

Results

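The genes described here encode 35 enzymes and carriers that build ribonucleotides: the pentose phosphate pathway that supplies ribose, the synthetases that make phosphoribosyl pyrophosphate (PRPP), de novo purine and pyrimidine synthesis, folate-dependent one-carbon supply, and a few nucleotide kinases and salvage enzymes. A gene was read from the probe set annotated to it alone, and where a gene had several, from the one with the highest mean over all arrays. In this way 33 of the 35 were measured, out of 19775 genes on the array. ADSS2 had no probe set of its own, UCK2 had only probe sets named with other genes, and both were not analysed here.

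The study treated L363, an established human multiple myeloma cell line, for 48 hours and measured total RNA on 17 oligonucleotide arrays. The drugs were MS275, which inhibits class I histone deacetylases, and rapamycin, which inhibits the growth kinase mTOR. The groups were untreated control cells, 0.5 uM MS275, 1 nM rapamycin, 10 nM rapamycin, and MS275 at the same dose with 1 nM or with 10 nM rapamycin, called the 1 nM and the 10 nM combination here. Each had 3 arrays except the 10 nM combination, which had 2 after the submitters left 1 array out at quality control. All groups were the same single line, so donors do not enter. The labels do not say that replicates were separate cultures, so p-values measure the spread between these arrays, which may be technical.

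Ribonucleotides are made from ribose 5-phosphate, which PRPP synthetases turn into the activated sugar on which the purine ring is built step by step, and to which the finished pyrimidine ring is attached. The purine route needs one-carbon units carried on folate, so folate uptake and the folate enzymes feed it directly. Many of these genes are known targets of MYC, whose protein binds the sequence CACGTG (the E-box). The kinase mTOR acts on several of them through transcription factors, and its signalling leads to phosphorylation of the pyrimidine enzyme CAD. Antifolates and inhibitors of single steps are long used to slow dividing blood cells.

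The label of the cells was checked against marker genes. The plasma cell genes SDC1, TNFRSF17, IRF4, XBP1, MZB1 and POU2AF1 had median log2 signals over the 17 arrays between 11.6 and 12.7, PRDM1, SLAMF7 and CD38 were at 9.54, 9.47 and 7.72, and CD27 was low at 4.63. Markers of B cells, T cells, myeloid cells, epithelial cells and fibroblasts had medians from 2.59 to 7.04. Some of these markers changed with treatment by limma. CD38 fell in the 4 comparisons of rapamycin and the combinations with control, by 0.90 to 1.49 on the log2 scale (adjusted p up to 0.0275), and SDC1 fell by 1.45 in the 10 nM combination (adjusted p = 0.0495). The myeloid marker CSF1R rose by 1.00 with MS275 and by 0.91 in the 1 nM combination (adjusted p = 0.0236 and 0.0238) but stayed at or below 6.07 on every array, and the part of these genes in the results was not tested. On 2 arrays, the first replicates of control and of the 1 nM combination, the values spread less than elsewhere (SD over all probe sets of 2.14 and 2.15). Results without these 2 arrays are also given for many of the genes, but not for every call or value. Values near 0 that are not given this way may change sign without them. Control replicate 1 also stood apart on 20 cell cycle genes, with a median deviation from the mean over all arrays of -0.18 on the log2 scale against 1.38 and 1.39 on the other control arrays.

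Before the values, the start regions of the genes that the results turn on are shown with the E-box letters CACGTG in capitals, read from RefSeq on GRCh38.p14, 5' to 3' on the strand of the gene. The table of start regions held 46 windows of 300 bases for 32 of the 35 genes. CACGTG, which reads the same on both strands, lay in 10 of the 46 windows (21.7%) against 7.26% of all 35116 windows. Windows can overlap, so these are not 10 separate copies. The 3 windows of MTHFD1L with the motif hold the same copy, and PAICS and PPAT share 1. By gene, 8 of the 32 had it (25%), which were ATIC, DHODH, MTHFD1, MTHFD1L, NME1, PAICS, PPAT and SLC19A1, against 10.9% of the 15384 measured genes with a window. The ATF4 motif TGATGNAA, searched on both strands, lay in 3 of the 46 windows, the same overlapping ones of MTHFD1L (6.52% against 3.62% of all windows). By gene this was 1 of the 32 (3.12%) against 3.61% of the measured genes. The 250 bases before the start are printed for 4 of the 5 genes that passed the test in a comparison with control, at chr3:53256023-53256272 on the minus strand for TKT, and on the plus strand at chr17:8249039-8249288 for PFAS, chr2:27217119-27217368 for CAD and chr16:72008494-72008743 for DHODH. Only DHODH among the 4 has the motif in its window, 159 bases before the start.
TKT: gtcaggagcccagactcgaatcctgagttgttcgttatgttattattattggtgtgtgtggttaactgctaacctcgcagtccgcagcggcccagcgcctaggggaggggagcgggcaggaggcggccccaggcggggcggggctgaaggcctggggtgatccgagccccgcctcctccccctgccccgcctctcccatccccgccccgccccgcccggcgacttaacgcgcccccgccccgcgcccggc
PFAS: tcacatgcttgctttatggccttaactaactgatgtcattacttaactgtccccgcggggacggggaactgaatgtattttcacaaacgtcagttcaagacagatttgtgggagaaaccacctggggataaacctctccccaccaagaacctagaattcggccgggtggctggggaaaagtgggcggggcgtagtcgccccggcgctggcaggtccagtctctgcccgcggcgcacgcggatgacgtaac
CAD: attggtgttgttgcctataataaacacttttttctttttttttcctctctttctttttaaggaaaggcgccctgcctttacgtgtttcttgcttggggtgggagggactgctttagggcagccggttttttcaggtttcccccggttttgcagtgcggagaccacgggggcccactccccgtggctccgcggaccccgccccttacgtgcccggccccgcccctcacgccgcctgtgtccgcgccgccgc
DHODH: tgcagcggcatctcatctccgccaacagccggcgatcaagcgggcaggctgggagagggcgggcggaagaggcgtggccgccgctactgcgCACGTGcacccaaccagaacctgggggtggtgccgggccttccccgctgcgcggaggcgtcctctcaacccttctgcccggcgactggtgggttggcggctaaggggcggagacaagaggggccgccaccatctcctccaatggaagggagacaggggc

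The fifth gene, SLC19A1, has 4 start windows, of which 1 holds CACGTG, 33 bases into the transcript, and PPAT and PAICS are shown with it because 1 copy of the motif serves as a match for both. These purine genes are divergent neighbours on chromosome 4. PAICS has 3 start windows, of which only 1 overlaps that of PPAT and holds the copy. Between that start of PAICS and the start of PPAT lie 136 bases. The copy lies 182 bases before the start of PPAT and 41 bases into PAICS, counted from that start. The 30 bases round each copy are given, at chr21:45541797-45541826 on the minus strand for SLC19A1 and at chr4:56435780-56435809 on the minus strand for PPAT. A match describes these letters in these windows and is no binding site by itself.
SLC19A1: ttcgcgcccaggCACGTGttgcttcgggac
PPAT and PAICS: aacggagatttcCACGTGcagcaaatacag

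The comparison of MS275 with control shows the histone deacetylase inhibitor alone. Of the 33 genes 4 fell and 0 rose: SLC19A1, which carries reduced folate into the cell, CAD, which starts pyrimidine synthesis, PFAS, a step of purine synthesis, and TKT, the transketolase of the pentose phosphate pathway. Their falls lay between 0.89 and 1.15 on the log2 scale, or 1.85-fold to 2.22-fold. Over all genes 0.455% fell and 1.04% rose at the same threshold, an adjusted p under 0.05 by limma with Benjamini-Hochberg adjustment over all 19775 genes. The median log2 change of the 33 genes was -0.26 against -0.05 for all genes, and 23 were below 0, beside 11246 of all 19775. Without the 2 narrow arrays the medians were -0.47 and 0.05. Of the 33, 6 then fell and 26 were below 0, beside 243 and 8553 of all 19775 genes. On 6 of the 33 all MS275 arrays lay below all control arrays, against 5.34% of all genes. The 20 cell cycle genes had a median change of -0.57 with 3 lower calls in the same comparison (-1.09 with 5 without the narrow arrays), and their part in these values was not tested. The 4 calls each depended on single arrays, which are named with each gene, and the count was 0 when MS275 replicate 3 was left out, 1 without replicate 2 of that group or replicate 3 of control, and 2 without control replicate 2.

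Rapamycin alone against control asks what mTOR inhibition changed. No gene of the 33 passed the threshold at either dose by limma, where 0.0809% of all genes fell and 0.0202% rose at 1 nM, and 0.369% fell and 0.0657% rose at 10 nM. At an unadjusted p under 0.05 there were 4 genes at 1 nM and 5 at 10 nM, or 12.1% and 15.2%, against 8.05% and 6.96% of all genes. With array quality weights 11 and 7 genes passed, where 2804 and 1951 of all 19775 genes did, against 20 and 86 without weights. The median change of the 33 was -0.13 and -0.10 against -0.12 and -0.07 for all genes. Without the 2 narrow arrays these medians were each -0.35 for the 33, against -0.02 and 0.02 for all genes. TKT came nearest, with changes of -0.98 ± 0.21 (SE) at each dose and limma adjusted p = 0.0960 and 0.0612, and it passed with the replicate number as a block (adjusted p = 0.0465 and 0.0305). SLC19A1 followed with -0.86 ± 0.20 and -0.77 ± 0.20 (adjusted p = 0.135 and 0.161). The cell cycle genes had medians of -0.74 and -1.31, with 1 and 7 lower calls, which became -1.29 and -1.78 with 3 and 13 without the narrow arrays.

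The combinations against control ask what both drugs together left of the pathway. SLC19A1, TKT and PFAS fell in both, and CAD and DHODH, which oxidises the new pyrimidine ring, passed in addition in the 10 nM combination, while none of the 33 rose in either. The lower calls thus numbered 3 of 33 in the 1 nM combination, where 1.58% of all genes fell and 1.12% rose, and 5 of 33 in the 10 nM combination, where 2.24% fell and 1.06% rose. The median change of the 33 was -0.41 and -0.45 against 0.02 and -0.08 for all genes. Below 0 were 27 and 23 of the 33, beside 9293 and 11809 of all 19775 genes. All combination arrays lay below all control arrays for 9 genes at 1 nM, against 5.61% of all genes, and for 12 at 10 nM, where 2 arrays against 3 give 13% of all genes. The cell cycle genes had medians of -1.45 and -1.64 with 8 and 9 lower calls, and their part was not tested. With the replicate number as a block 8 and 6 genes passed, where the count over all genes went from 533 and 652 to 1033 and 1343. The pairing of the 10 nM combination by number was doubtful. Without the 2 narrow arrays 5 and 8 passed, beside 623 and 938 of all genes, and the median of the 33 was -0.53 and -0.69. Without control replicate 1 the 1 nM count was 8, and without replicate 2 of that combination it was 1. The 10 nM count was 1 and 2 when its replicate 1 or 2 was left out, and 3 when replicate 3 of control or replicate 1 of 1 nM rapamycin was.

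**Figure D1:**
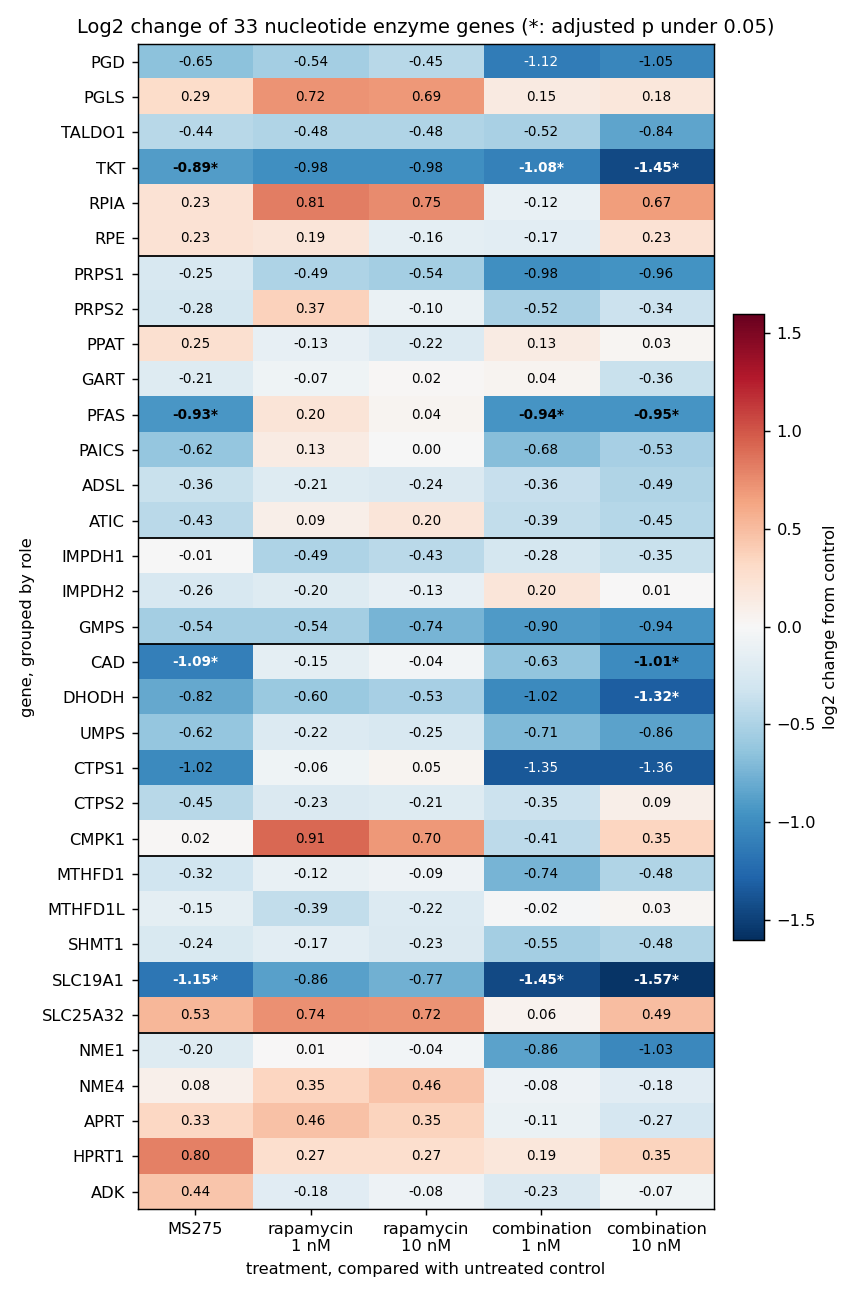
Log2 change from control (colour and printed number) of the 33 measured genes, in rows grouped by role, in the 5 treatments in columns; a star marks a limma adjusted p under 0.05. Stars stand only in the columns with MS275, and all mark falls, the largest being SLC19A1 at -1.57 in the 10 nM combination.

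In the pentose phosphate pathway, which makes NADPH and ribose 5-phosphate, TKT was the gene with calls. TKT, which shuttles carbon pairs between sugars in the non-oxidative branch, read 11.59, 11.65 and 11.92 on the control arrays and 11.13, 10.62 and 10.74 with MS275. With rapamycin it read 10.75, 10.61 and 10.84 at 1 nM and 10.53, 10.58 and 11.12 at 10 nM. The combinations read 10.84, 10.34 and 10.74 at 1 nM and 10.09 and 10.46 at 10 nM. Every treated array lay below every control array, and the 10 nM combination also lay below MS275 and both rapamycin groups, while the other treated groups overlapped. In bulk RNA, fewer expressing cells and less RNA per cell cannot be told apart, here as for the other genes. TKT fell by 0.89 ± 0.21 with MS275 (SE, limma adjusted p = 0.0496), by 1.08 ± 0.21 in the 1 nM combination (adjusted p = 0.0107) and by 1.45 ± 0.23, or 2.73-fold, in the 10 nM combination (adjusted p = 0.0033). The MS275 call held when MS275 replicate 1, 1 nM combination replicate 1 or 2, or 10 nM rapamycin replicate 3 was left out and was lost without any of the other 13 arrays (adjusted p up to 0.195). It was also lost with the mean of a gene's probe sets (0.195), with a minimum signal of 6 (0.0678) and with the trend and robust options of eBayes (0.0942). The call in the 1 nM combination needed replicate 3 of control and replicate 2 of the combination (adjusted p up to 0.0588), and that in the 10 nM combination its replicate 1 (0.0604 without it).

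The other 5 pentose phosphate genes passed in no comparison with control. PGD, the second NADPH-making dehydrogenase, differed from control by -0.65 with MS275, -0.54 and -0.45 with rapamycin, and -1.12 and -1.05 in the combinations, and with the replicate block the 1 nM combination value passed (adjusted p = 0.0282). TALDO1, the transaldolase, ranged from -0.44 to -0.84 over the 5 treatments. PGLS, the lactonase between the dehydrogenases, was above control in all 5 on the probe set used, from 0.15 to 0.72. RPIA and RPE, which interconvert the pentose phosphates, ranged from -0.12 to 0.81 and from -0.17 to 0.23, and without the 2 narrow arrays from -0.27 to 0.32 and from -0.30 to -0.74. The median of the 6 genes of the pathway was -0.11 with MS275 and -0.34 and -0.33 in the combinations.

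PRPP synthesis has 2 measured genes, PRPS1 and PRPS2, which encode isoforms of the synthetase. PRPS1 differed from control by -0.25 with MS275, by -0.49 and -0.54 with rapamycin and by -0.98 and -0.96 in the combinations. Its 1 nM combination value passed with the replicate block (adjusted p = 0.0193 against 0.165 without). PRPS2 ranged from -0.52 to 0.37 and had a spread of 1.17 (SD, n = 3) between control arrays. Without the 2 narrow arrays it ranged from -0.27 to -0.99.

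In the purine route from PRPP to inosine monophosphate (IMP), PFAS separated the arrays by MS275. PFAS, which turns the formylated ring precursor into its amidine with glutamine, read 8.84, 9.35 and 8.83 in control cells, 9.07, 9.45 and 9.09 with 1 nM rapamycin and 8.77, 9.27 and 9.10 with 10 nM. With MS275 it read 8.30, 7.82 and 8.11, in the 1 nM combination 8.11, 7.90 and 8.17, and in that with 10 nM 8.02 and 8.09. The 8 arrays with MS275 lay at or below 8.30 and the 9 arrays without it at or above 8.77. PFAS fell by 0.93 ± 0.20 with MS275 (SE, limma adjusted p = 0.0310), by 0.94 ± 0.20 in the 1 nM combination (adjusted p = 0.0178) and in the other by 0.95 ± 0.22 (adjusted p = 0.0306). With rapamycin alone it differed from control by 0.20 and 0.04, with 95% confidence intervals of 0.42 to either side. The MS275 call did not hold when replicate 2 or 3 of control or of MS275 was left out (adjusted p up to 0.126), and the 1 nM combination call without control replicate 2 or combination replicate 2 (up to 0.0807). In the 10 nM combination it needed replicate 2 of control and both combination arrays (up to 0.177). With the trend and robust options of eBayes all 3 calls were lost (adjusted p = 0.0816, 0.0532 and 0.0798).

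The other 5 genes of the route to IMP did not pass in the fit of all arrays. PAICS, which carries out the carboxylase step and the one after it, differed by -0.62 with MS275, 0.13 and -0.0042 with rapamycin, and -0.68 and -0.53 in the combinations. On the narrow control replicate 1 PAICS read 9.96 against 11.11 and 11.59 on the other control arrays. Without the 2 narrow arrays PAICS passed with MS275 (-1.08, adjusted p = 0.0211) and in the combinations (-0.94 and -0.99, adjusted p = 0.0487 and 0.0302). PPAT, the first committed step and the divergent neighbour of PAICS, had changes from -0.22 to 0.25. On control replicate 1 it read 7.85 against 8.37 and 9.09, and without the 2 narrow arrays PPAT lay below control in all 5 treatments, from -0.04 to -0.52, as PAICS then did. GART, a trifunctional enzyme, ranged from -0.36 to 0.04, ADSL, which cleaves off fumarate, from -0.21 to -0.49, and ATIC, which closes the ring, from -0.45 to 0.20. Without the narrow arrays GART and ATIC were below control in all 5, from -0.11 to -0.49 and from -0.24 to -0.90.

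The branches from IMP had no calls with all arrays. GMPS, which makes guanosine monophosphate, was below control in all 5 treatments (-0.54, -0.54, -0.74, -0.90 and -0.94 with MS275, 1 and 10 nM rapamycin, and the 1 and 10 nM combinations), with its lowest adjusted p of 0.0925 in the 1 nM combination. It passed there with the replicate block (adjusted p = 0.0221), and in the 10 nM combination without the 2 narrow arrays (-1.18, adjusted p = 0.0375). IMPDH1, an isoform of the enzyme before GMPS, ranged from -0.01 with MS275 to -0.49 with 1 nM rapamycin. IMPDH2, the other isoform, ranged from -0.26 to 0.20.

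In pyrimidine synthesis the median of the 6 genes was -0.72 with MS275 and -0.67 and -0.93 in the combinations, and 1, 0 and 2 of them fell. CAD, whose single chain carries the first 3 activities of the route, read 9.69, 9.46 and 9.60 in control cells and 8.92, 8.28 and 8.28 with MS275. It read 9.33, 9.73 and 9.24 with 1 nM rapamycin and 9.21, 9.76 and 9.67 with 10 nM. In the combinations it read 9.20, 8.80 and 8.86 at 1 nM and 8.64 and 8.51 at 10 nM. All arrays with MS275 lay below all control and all rapamycin arrays. CAD fell by 1.09 ± 0.21 with MS275, or 2.13-fold (SE, limma adjusted p = 0.0210), and by 1.01 ± 0.24 in the 10 nM combination (adjusted p = 0.0327), while its change of -0.63 ± 0.21 in the 1 nM combination did not pass (adjusted p = 0.170). The MS275 call needed replicate 3 of control and replicates 2 and 3 of MS275 (adjusted p up to 0.113 without one of them). The 10 nM combination call needed both arrays of that group, replicates 1 and 3 of control and replicate 1 of 1 nM rapamycin. With 1 array of that group left, the change was -1.08 or -0.94. The call was also lost under 4 of 9 other settings.

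DHODH, the mitochondrial enzyme after CAD, read 7.67, 7.29 and 7.57 in control cells and 6.78, 6.36 and 6.92 with MS275. With rapamycin it read 6.71, 6.79 and 7.23 at 1 nM and 6.48, 6.89 and 7.55 at 10 nM, so that only the third array at 10 nM reached into the control range. The combinations read 6.70, 6.02 and 6.74 at 1 nM and 5.85 and 6.52 at 10 nM, all below every control array. DHODH fell by 1.32 ± 0.32, or 2.50-fold, in the 10 nM combination (SE, limma adjusted p = 0.0391). Its change of -1.02 ± 0.29 in the 1 nM combination did not pass (adjusted p = 0.0865, and 0.0281 with the replicate block). The 10 nM call was lost without the 2 narrow arrays (-1.24, adjusted p = 0.0809) and when any of 8 arrays was left out: replicates 1 and 3 of control, replicate 1 of MS275, replicates 1 and 2 of 1 nM rapamycin, replicate 2 of 10 nM rapamycin and both of the 10 nM combination (adjusted p up to 0.330). With the mean of the gene's 3 probe sets the change was -0.43 and the call was lost (adjusted p = 0.337). The second probe set showed a smaller difference of -0.32 in each combination, and the third, with a mean signal of 5.69, lay above control in all 5 treatments, by 0.07 to 0.72.

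CTPS1, the synthetase that turns UTP into CTP, varied widely between control arrays (8.32, 9.14 and 9.90) and is described beside the genes with calls because of the averaged comparison below, a choice made after its values were seen. It read 8.09, 7.70 and 8.52 with MS275, 7.30, 7.54 and 8.48 in the 1 nM combination and 7.37 and 8.16 in the 10 nM combination. With rapamycin alone it read 8.93, 8.93 and 9.32 at 1 nM and 8.82, 9.09 and 9.59 at 10 nM. Every rapamycin array lay above every array with MS275. Its changes from control were -1.02 ± 0.40, -1.35 ± 0.40 and -1.36 ± 0.44 (SE) with MS275 and in the combinations, with limma adjusted p = 0.318, 0.0960 and 0.132. With the replicate number as a block all 3 passed (adjusted p = 0.0336, 0.0048 and 0.0269), though the pairing of the 10 nM combination by number was doubtful. UMPS, which completes UMP, ranged from -0.22 to -0.86 without a call. CMPK1, the UMP and CMP kinase, ranged from -0.41 to 0.91, and from -0.81 to 0.08 without the 2 narrow arrays.

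**Figure D2:**
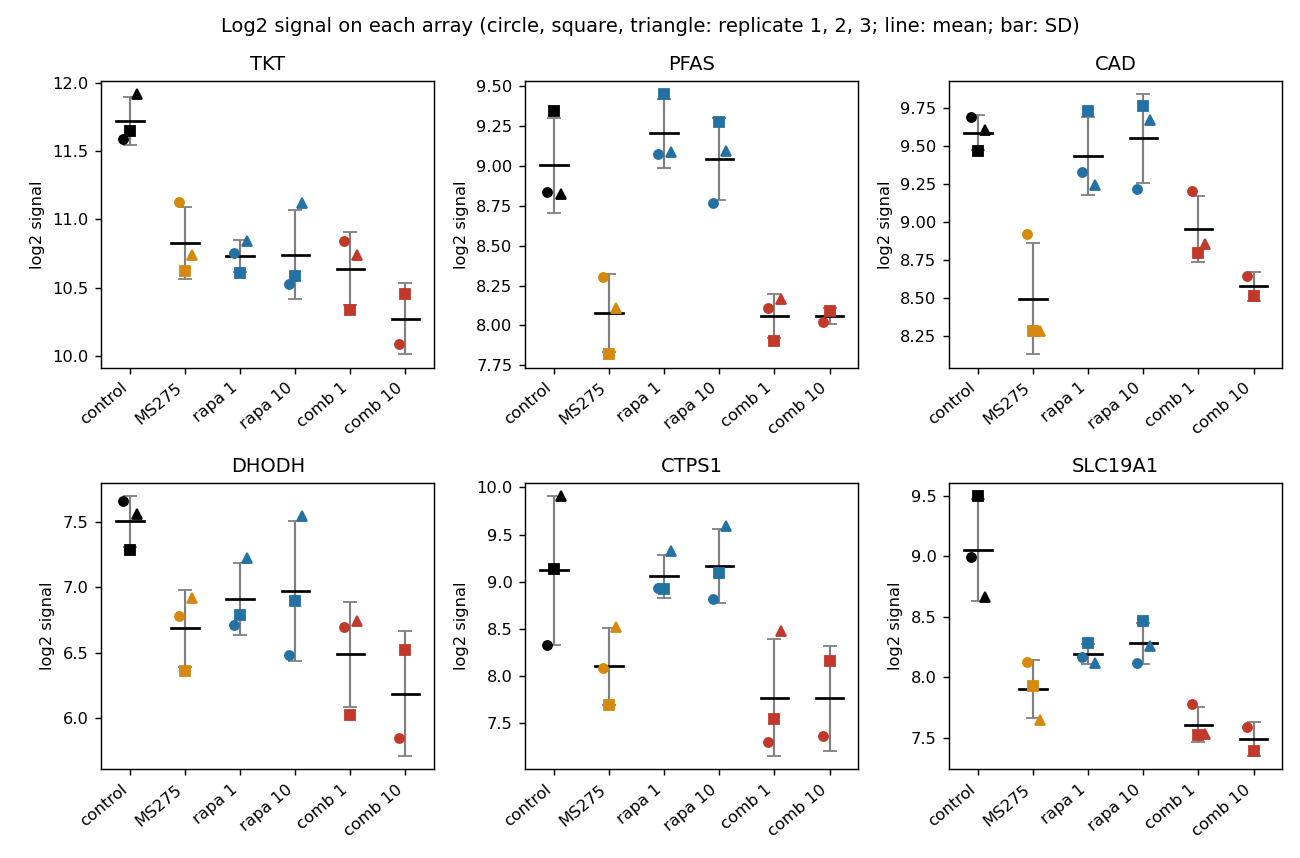
Log2 signal (vertical axis) of TKT, PFAS, CAD, DHODH, CTPS1 and SLC19A1 on each of the 17 arrays, grouped by treatment, 1 point an array. PFAS lies at or below 8.30 on all arrays with MS275 and at or above 8.77 on all others, while all TKT points of treated cells lie below the control points.

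Among the folate genes only SLC19A1 passed against control with all arrays, and its log2 falls with MS275 and in the combinations were the largest of the 33. SLC19A1, the reduced folate carrier through which methotrexate also enters, read 8.99, 9.50 and 8.67 in control cells and 8.13, 7.93 and 7.65 with MS275. It read 8.17, 8.29 and 8.12 with 1 nM rapamycin and 8.12, 8.46 and 8.26 with 10 nM. In the combinations it read 7.78, 7.52 and 7.53 at 1 nM and 7.59 and 7.39 at 10 nM. All treated arrays lay below all control arrays, and the arrays of both combinations lay below all rapamycin arrays. SLC19A1 fell by 1.15 ± 0.20 with MS275, or 2.22-fold (SE, limma adjusted p = 0.0116), by 1.45 ± 0.20 in the 1 nM combination (adjusted p = 0.0015) and by 1.57 ± 0.23, or 2.96-fold, in the 10 nM combination (adjusted p = 0.0016). Both combination calls held with each of the 17 arrays left out in turn (adjusted p at most 0.0087 and 0.0345). The MS275 call was lost without MS275 replicate 3 (0.0743). Of its 6 other probe sets, the 3 with a mean log2 signal of at least 6 were lower in the combinations, by changes from -0.80 to -1.81. Of the 3 dimmer ones, 2 were lower too (from -0.63 to -1.95), and the dimmest, with a mean of 3.94, gave 0.33 and -0.12.

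MTHFD1, the cytosolic trifunctional folate enzyme, differed by -0.32 with MS275, -0.12 and -0.09 with rapamycin and -0.74 and -0.48 in the combinations, without a call. On the narrow control replicate 1 MTHFD1 read 8.66 against 9.84 and 9.50 on the other control arrays. Without the 2 narrow arrays MTHFD1 passed with MS275 (-0.66, adjusted p = 0.0299) and in the combinations (-0.86 and -0.82, adjusted p = 0.0104 and 0.0093). MTHFD1L and SHMT1, a mitochondrial and a cytosolic folate enzyme, had low signals, with group means from 2.94 to 3.36 and from 3.81 to 4.36, and with no detection calls used here their signal over background is not known. SLC25A32, the mitochondrial folate carrier, ranged from 0.06 to 0.74 above control, with an SD of 2.05 (n = 3) between control arrays. SLC25A32 read 5.58 on control replicate 1 against 8.92 and 9.32 on the others, and without the 2 narrow arrays it lay below control in all 5 treatments, from -0.44 to -0.69 (-0.65 with MS275).

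The kinases and salvage enzymes had no call against control. NME1, a nucleoside diphosphate kinase, differed from control by -0.20 with MS275, 0.01 and -0.04 with rapamycin, and -0.86 and -1.03 in the combinations, with all combination arrays below all control arrays and limma adjusted p = 0.241 and 0.169. NME4, its mitochondrial relative, ranged from -0.18 to 0.46. The salvage enzymes HPRT1, which recovers guanine and hypoxanthine, APRT, which recovers adenine, and ADK, which phosphorylates adenosine, ranged from 0.19 to 0.80, from -0.27 to 0.46 and from -0.23 to 0.44. HPRT1 was the only gene of the 33 whose MS275 arrays all lay above all control arrays, a count of 1 where 5.7% of all genes did so. HPRT1 read 10.88 on control replicate 1 against 12.39 and 12.41, and without the 2 narrow arrays its change was 0.29 with MS275 and from -0.05 to -0.24 in the other treatments.

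The comparisons within treated cells ask what each drug added to the other. Adding MS275 to 1 nM rapamycin lowered 1 of the 33 genes, PFAS, by 1.14 ± 0.20 (SE, limma adjusted p = 0.0107), where 0.293% of all genes fell, and raised 0, where 0.936% rose. The PFAS call was lost without 1 nM rapamycin replicate 2 (0.0641), and with the replicate block CTPS1 passed beside it (-1.29, adjusted p = 0.0113). Adding MS275 to 10 nM rapamycin gave 0 calls by limma, where 0.435% of all genes passed in either direction and 6 of the 33 (18.2%) had an unadjusted p under 0.05 against 7.34% of all genes. PFAS differed there by -0.99 ± 0.22 (adjusted p = 0.0748, and 0.0465 with the replicate block, whose pairing was doubtful for the 10 nM combination). The median change of the 33 on adding MS275 was -0.48 and -0.38 against 0.12 and -0.01 for all genes.

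Adding rapamycin to MS275 gave 0 calls among the 33 by limma at either dose, where 0.106% and 0.253% of all genes passed in either direction, and 1 and 2 of the 33 (3.03% and 6.06%) had an unadjusted p under 0.05 against 4.44% and 4.5% of all genes. The TKT change was -0.19 ± 0.21 on adding 1 nM and -0.56 ± 0.23 on adding 10 nM, where both combination arrays lay below the MS275 arrays (adjusted p = 0.981 and 0.984). For SLC19A1 it was -0.29 ± 0.20 and -0.41 ± 0.23. Adding rapamycin to MS275 gave CAD changes of 0.46 ± 0.21 and 0.08 ± 0.24, and PFAS changes of -0.02 at each dose with intervals of 0.42 and 0.47 to either side. No gene of the 33, and 0% of all genes, differed between the rapamycin doses, without MS275 (0 of the 33 and 24 of all genes at an unadjusted p under 0.05) or with it (0 and 152), and the median 95% interval of a change extended 0.69 and 0.77 to either side.

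The interaction, by which the log2 effect of both drugs exceeds their single effects added up, passed for none of the 33 by limma at either dose, and for 0% of all genes. At an unadjusted p under 0.05 there was 1 gene at 1 nM, TKT, and 0 at 10 nM, beside 916 and 194 of the 19775 genes (4.63% and 0.981%). For TKT the interaction was 0.80 ± 0.30 at 1 nM (SE, adjusted p = 0.682) and 0.42 ± 0.31 at 10 nM. The single-drug changes of TKT at 1 nM were -0.89 and -0.98, and the combination's was -1.08. For PFAS it was -0.22 ± 0.28 and -0.06 ± 0.30. The median 95% interval of an interaction extended 0.97 and 1.03 to either side.

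The effect of each drug averaged over the other's levels uses all 17 arrays and was added after the data were seen. MS275, averaged over no, 1 and 10 nM rapamycin, lowered 7 of the 33 genes and raised 0, where 3.59% of all genes fell and 4.54% rose. PFAS fell by 1.02 ± 0.12, CTPS1 by 1.24 ± 0.24, CAD by 0.85 ± 0.13 and SLC19A1 by 0.84 ± 0.12 (SE, limma adjusted p = 0.0001, 0.0044, 0.0008 and 0.0006). These 4 calls held with each array left out. DHODH fell by 0.68 ± 0.17, TKT by 0.49 ± 0.13 and NME1 by 0.69 ± 0.20 (adjusted p = 0.0262, 0.0264 and 0.0429), with less stable calls. DHODH was lost without MS275 replicate 2, 1 nM rapamycin replicate 3 or 10 nM combination replicate 1 (up to 0.107). TKT needed 7 arrays: replicate 3 of control, replicates 2 and 3 of MS275, replicates 1 and 3 of 1 nM rapamycin, replicate 2 of the 1 nM combination and replicate 1 of the 10 nM one. The TKT call was also lost with the mean of a gene's probe sets and with the trend and robust options of eBayes. NME1 was lost without the 2 narrow arrays (adjusted p = 0.0677), and it held when control replicate 1, 1 nM rapamycin replicate 2, 1 nM combination replicate 3, 10 nM rapamycin replicate 2 or 10 nM combination replicate 2 was left out and was lost without any of the other 12 arrays (up to 0.174). The count was 4 without MS275 replicate 2, 10 nM combination replicate 1 or 1 nM rapamycin replicate 3, and 10 without control replicate 1. The replicate block added PGD, PAICS and MTHFD1 (adjusted p = 0.0395, 0.0258 and 0.0386).

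Rapamycin, averaged over its doses with and without MS275, lowered 2 of the 33, TKT and SLC19A1, and raised 0, where 1.94% of all genes fell and 0.41% rose. TKT fell by 0.68 ± 0.13 and SLC19A1 by 0.59 ± 0.13 (SE, limma adjusted p = 0.0121 and 0.0241). For PFAS the average was 0.05 ± 0.12, for CAD 0.09 ± 0.13 and for CTPS1 -0.17 ± 0.25. The TKT call held with each array left out (adjusted p at most 0.0484). That of SLC19A1 was lost without MS275 replicate 1 or 2, replicate 1 of either rapamycin dose or 10 nM combination replicate 2 (up to 0.0917), which left a count of 1, and also with quantile normalization, the mean of probe sets, or trend and robust (up to 0.0816). The replicate block added PRPS1 and IMPDH1 (-0.56 and -0.39, adjusted p = 0.0358 and 0.0472). The cell cycle genes had a median of -0.57 with 5 lower calls for MS275 and -1.07 with 10 for rapamycin.

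**Figure D3:**
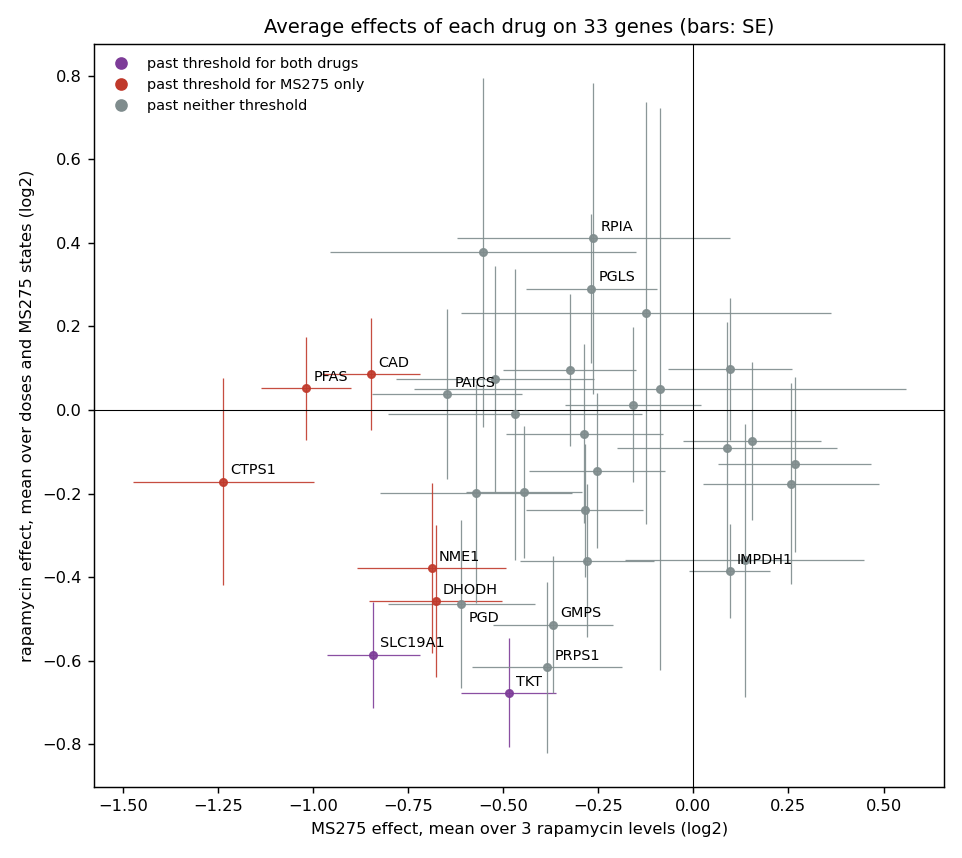
Log2 effect of MS275 averaged over rapamycin levels (horizontal axis) against that of rapamycin averaged over its doses and MS275 states (vertical axis), 1 point for each of the 33 genes, with SE bars. PFAS, CAD and CTPS1 lie to the left near the 0 line of rapamycin (0.05, 0.09 and -0.17), and TKT and SLC19A1 lie low on both axes.

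For 5 pairs of related enzymes, the change in the 5 combination arrays against the 3 control arrays was compared within the pair. The change of NME4 less that of NME1 was 0.81 on the log2 scale (changes of -0.12 and -0.93), and the difference NME4 less NME1 was higher on all 5 combination arrays than on all 3 control arrays. The two-sided exact permutation test gave p = 0.0179, the smallest that 56 splits allow, and 0.0893 after Benjamini-Hochberg adjustment over the 5 pairs, which did not pass. CTPS2 less CTPS1 was 1.18 (exact permutation p = 0.357), PRPS2 less PRPS1 0.52 (p = 0.357), MTHFD1L less MTHFD1 0.64 (p = 0.411) and IMPDH2 less IMPDH1 0.43 (p = 0.179), each with an adjusted p of 0.411 and overlapping arrays. The PRPS value rested on control replicate 1, and was -0.044 without it. The MTHFD value turned to -0.53 with the mean of all probe sets of a gene. The SD of CTPS2 less CTPS1 was 1.76 between combination arrays and 1.27 between control arrays. MTHFD1L and CTPS2 had low signals, with mean log2 values over the 17 arrays of 3.20 and 4.52. Their pair differences therefore cannot tell an unequal change from a signal too low to fall. CTPS2 also read 5.91 to 6.45 on replicate 2 of the groups of 3 and 3.29 to 4.26 on their other arrays. In the 10 nM combination it read 6.17 and 3.47. The pair value of CTPS2 thus also depends on which arrays a group holds.

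**Figure D4:**
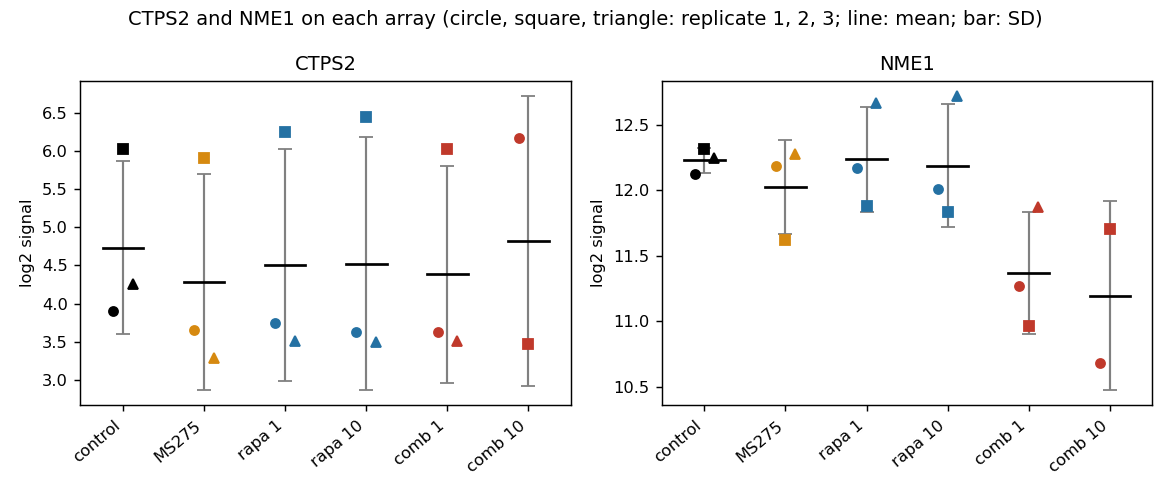
Log2 signal (vertical axis) of CTPS2 and NME1 on each array by treatment, with the replicate number as the marker and the mean and SD as line and bar. CTPS2 lies at 5.91 or higher on replicate 2 of every group of 3, and at 4.26 or lower on their replicates 1 and 3.

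Where a gene had other probe sets, these were set beside the one used. The 33 genes had 48 further probe sets over 23 genes, of which 33 differed from control with the same sign as the one used at 1 nM combined with MS275, and 32 at 10 nM. Of the 48, 24 over 15 genes had a mean log2 signal of at least 6, with the same sign in 19 and 18 cases. Among these 24, 5 lay above control in all 5 treatments. They were 1 each of GART (0.65 to 1.32), GMPS (0.39 to 0.71), UMPS (0.18 to 0.37), PPAT (0.05 to 0.45) and PGLS (0.02 to 0.67). The ones used ranged from -0.36 to 0.04 for GART, and lay below control in all 5 for GMPS and UMPS and above it for PGLS. For GMPS and UMPS the direction thus depended on the probe set, though a further brighter set of each also lay below control in all 5. For PGLS it did so in the combinations. Another PGLS set, with a mean signal of 6.59, changed there by -0.58 and -0.75, against 0.15 and 0.18 for the one used. Among the 24 dimmer ones, 5 lay above control in all 5 treatments, of ADK, DHODH, GART, MTHFD1 and PGLS, with 0.79 to 1.46 for GART and 0.11 to 1.80 for MTHFD1. TKT's second probe set was lower by changes of -1.23 and -1.67 in the combinations.

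Other genes of nucleotide and folate metabolism outside the 35 were taken from a list of 55, of which 48 were measured. With MS275 1 fell and 1 rose, where 0.455% of all genes fell and 1.04% rose. With rapamycin alone 0 passed, and 5 and 7 had an unadjusted p under 0.05 by limma at 1 and 10 nM. These were 10.4% and 14.6%, against 8.05% and 6.96% of all genes. In the 1 nM combination 2 fell and 1 rose, where 1.58% of all genes fell and 1.12% rose. In the 10 nM combination 3 fell and 1 rose, where 2.24% fell and 1.06% rose. ADA, adenosine deaminase, fell by 0.83 ± 0.19, 1.22 ± 0.19 and 1.33 ± 0.21 with MS275 and in the 1 and 10 nM combinations (SE, limma adjusted p = 0.0399, 0.0024 and 0.0028). SHMT2, the mitochondrial serine hydroxymethyltransferase, fell by 1.27 ± 0.29 and 1.34 ± 0.32 in the combinations (adjusted p = 0.0255 and 0.0331), and UPP1, uridine phosphorylase, by 1.09 ± 0.27 in the 10 nM combination (adjusted p = 0.0401). AMPD1, an AMP deaminase known from muscle, rose by 1.80 ± 0.36, 1.94 ± 0.36 and 1.77 ± 0.41 in the 3 settings (adjusted p = 0.0236, 0.0091 and 0.0279). The median change of the 48 was 0.02 with MS275 and -0.12 and -0.04 in the combinations.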

How the data were processed

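The authors deposited 1 log2 value for each probe set and array. Affy and RMA are named in the submitters' processing notes. Their versions were not given in the sources used here. No normalization was added. Of 54613 probe sets, 41091 carry 1 gene symbol, 1801 several and 11721 none in the platform annotation, and 41037 of the first matched a RefSeq gene table (GRCh38.p14) by Entrez ID. The probe set with the highest mean over the 17 arrays stood for a gene. The precision is limited by the 17 arrays. Detection calls were not used.

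The 6 group means were fitted to all 19775 genes by lmFit and eBayes of limma 3.58.1 (R 4.3.3), with 1 spread for all groups, and p-values were adjusted by Benjamini-Hochberg over all genes (threshold 0.05). The fit was tested on simulated data with independent noise on each array. That test does not cover the correlations between arrays described below. Intervals are 95% confidence intervals. Paralog pairs were compared by exact permutation in Python 3.11.15. All members are described, those past the threshold against control on every array, and from the other pathway genes those past it. The members and lists were chosen with earlier results of these data known.

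Replicate numbers recur across groups in the labels. Each array's deviation from its group mean was correlated between groups at the same number, over genes. It exceeded 0.1 for every number in 7 of the 10 group pairs that share 3 numbers, so a fit with the number as a block is given where it changes a call. The pairing comes from the data, not from the labels, and the 10 nM combination shares only 2 numbers with the others, with correlations down to -0.74. Alternatives were array weights, leaving out the 2 narrow arrays or each array in turn, quantile normalization, median centring, the mean of a gene's probe sets, a minimum mean log2 signal of 6, eBayes with trend and robust, and the arrays of the compared groups only. The 2 averaged comparisons and the block without the 2 narrow arrays were chosen after seeing the data.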

Additional observations from a re-analysis of the deposited data

How the results depend on the processing

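None of the 22 single calls described above turned to a rise under any setting, but the counts of genes that fell depended on the setting. In the order MS275, 1 nM rapamycin, 10 nM rapamycin, 1 nM combination and 10 nM combination against control, the 4, 0, 0, 3 and 5 genes became 5, 1, 1, 8 and 6 with the replicate block, 8, 11, 7, 9 and 11 with array weights, 6, 0, 0, 5 and 8 without the 2 narrow arrays, 7, 0, 1, 8 and 7 with both (chosen after seeing the data), and 4, 0, 1, 6 and 5 with quantile normalization. They became 2, 0, 0, 3 and 3 with the mean of a gene's probe sets, 2, 0, 0, 2 and 3 with trend and robust, and 0 in each with only the arrays of the groups compared, a fit with fewer arrays. For MS275 added to 1 nM rapamycin the 1 gene became 2 with the block, with or without the narrow arrays, and 0 with only the groups compared. For MS275 added to 10 nM rapamycin the 0 became 1 with the block, 1 without the narrow arrays and 3 with both. The averaged MS275 count of 7 became 8 without the 2 narrow arrays, 10 with the block and 11 with both. The averaged rapamycin count of 2 became 4 with the block, 7 with array weights, and 1 with quantile normalization, with the mean of probe sets and with trend and robust. Apart from such causes by construction, the cause was not tested.

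With each array left out in turn the counts ran from 0 to 4 for MS275, 1 to 8 and 1 to 5 for the 1 and 10 nM combinations, 0 to 1 for MS275 added to either rapamycin dose, and 4 to 10 and 1 to 2 for the averaged MS275 and rapamycin effects, and stayed at 0 for the other comparisons. The pair differences ran from 0.33 to 0.61 for IMPDH, -0.044 (without control replicate 1) to 0.86 for PRPS, 0.55 to 1.82 for CTPS, 0.22 to 1.38 for MTHFD and 0.67 to 0.94 for NME. The MTHFD difference was -0.53 with the mean of probe sets. The block changed no calls other than those named. The pairing of the 10 nM combination by number was doubtful, with correlations from -0.74 to 0.39, and no crossed pairing was run. Every block value that draws on this group, the averaged effects among them, carries this doubt.

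Over all genes the counts of calls moved in the same way. In the order above, 295, 20, 86, 533 and 652 became 662, 112, 227, 1033 and 1343 with the block, 1504, 2804, 1951, 1400 and 1555 with array weights, and 9, 0, 0, 0 and 0 with only the groups compared. Without the narrow arrays the counts for MS275 and the rapamycin doses became 531, 46 and 152. With a minimum signal of 6 the MS275 count became 168, and with trend and robust the rapamycin counts became 8 and 36. Quantile normalization gave 32 for 1 nM rapamycin, and the mean of probe sets gave 30. For the drugs added to each other (1 and 10 nM rapamycin to MS275, MS275 to 1 and 10 nM rapamycin) and the averaged effects of MS275 and rapamycin, 21, 50, 243, 86, 1607 and 464 became 44, 100, 559, 338, 2462 and 817 with the block and 18, 64, 922, 325, 3156 and 1562 with array weights. The first 4 of these became 12, 110, 265 and 262 without the narrow arrays, 9, 43, 155 and 50 with a minimum signal of 6, 5, 25, 213 and 66 with trend and robust, and 0, 0, 39 and 0 with only the groups compared. The mean of probe sets gave 12 for the first. With the block and without the narrow arrays, the 11 counts became 884, 92, 266, 1143, 1333, 27, 210, 447, 623, 3333 and 1030. The interaction at 10 nM went from 0 to 1 or 2 under 4 settings that kept all arrays. Median centring moved the median of all genes by over 0.1 for MS275 added to 1 nM rapamycin (from 0.12 to -0.04) and for the averaged MS275 effect (from 0.02 to -0.08). It also moved the lower share of the calls from 30.5% to 52.2% for MS275, from 58.5% to 72.1% for the 1 nM combination, from 23.9% to 45.0% and 31.4% to 46.3% for MS275 added to 1 and 10 nM rapamycin, and from 44.1% to 63.5% for the averaged MS275 effect.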

Other observations

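CTPS2, the second CTP synthetase, followed the replicate number and not the treatment. On replicate 2 of the 5 groups with 3 arrays it read 5.91 to 6.45 on the log2 scale (median 6.03), and on the other 10 arrays of these groups 3.29 to 4.26 (median 3.62). In the 10 nM combination, replicate 1 read 6.17 and replicate 2 read 3.47. A gap of at least 1 between replicate 2 and both other numbers in all 5 groups was found for 5 of the 19775 genes, all higher on replicate 2, with CTPS2 as the only one of the 33. For all 5 of these genes replicate 1 of the 10 nM combination lay on the side of the other groups' replicates 2, and for 0 of them its replicate 2. For replicate 3 there were 2 such genes, 1 higher and 1 lower, and replicate 2 of the 10 nM combination lay on the side of replicate 3 for both. Replicate 1 had 0 such genes. Why these arrays differ was not tested.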
